A study of Homo sapiens with 6 samples.

Results

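The p53 target genes described here are TP53INP1, TIGAR, AEN, PLK3, SESN1 and RRM2B, followed in BE(2)-C cells treated with the compound NCT-503. They were chosen by name, with earlier results of these data known. Each array row that the platform annotation gives to any of these symbols was taken. All 6 genes had a row, out of 14779 genes with a named row. BE(2)-C is an established, clonal human neuroblastoma line, so the values describe 1 clone of cells. The treated group is 3 samples given 10 µM NCT-503 for 2 days, and the control group is 3 samples given the vehicle DMSO for the same 2 days. NCT-503 inhibits PHGDH, the first enzyme of serine synthesis. The labels name no other agent or genotype in either group.

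The protein p53 is a transcription factor that DNA damage and metabolic stress stabilise. Its targets slow the cell cycle, start apoptosis, repair DNA and adjust metabolism, and several of them are also driven by other stress factors. The name of the group says where the genes are known from, and p53 activity was not measured here. The common p53 readouts CDKN1A and MDM2 were not analysed here.

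The 6 genes fall into roles. TP53INP1 is a stress-induced protein that promotes p53-dependent cell death and takes part in autophagy. AEN is a nuclease that degrades DNA during apoptosis. PLK3 is a polo-like kinase that responds to stress. TIGAR is a phosphatase that lowers glycolytic flux and favours the pentose phosphate pathway. SESN1 is a sestrin, which restrains the growth kinase complex mTORC1 through the GATOR complexes. RRM2B is the p53-induced small subunit of ribonucleotide reductase, which supplies deoxynucleotides for DNA repair and mitochondrial DNA.

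RefSeq promoter windows (GRCh38.p14, 250 bases before to 50 after a transcript start) were available for 4 of the 6 genes, with 3 starts for SESN1; TP53INP1 and RRM2B are named only. They were searched on both strands for the p53 half-site, for the E2F site TTTCCCGC or TTTGGCGC, for the E-box CACGTG, and for the C/EBP-ATF element TGATGCAA. The 250 bases before the start are shown 5′ to 3′ for AEN and TIGAR, which were lower with NCT-503, and for PLK3, which was higher; capitals mark matches.
AEN, chr15:88621090-88621339, plus strand: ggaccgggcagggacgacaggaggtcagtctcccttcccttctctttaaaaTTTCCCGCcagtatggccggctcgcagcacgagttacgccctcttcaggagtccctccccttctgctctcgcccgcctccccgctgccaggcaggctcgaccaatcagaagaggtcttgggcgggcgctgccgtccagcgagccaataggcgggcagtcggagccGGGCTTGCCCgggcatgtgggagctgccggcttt
TIGAR, chr12:4320963-4321212, plus strand: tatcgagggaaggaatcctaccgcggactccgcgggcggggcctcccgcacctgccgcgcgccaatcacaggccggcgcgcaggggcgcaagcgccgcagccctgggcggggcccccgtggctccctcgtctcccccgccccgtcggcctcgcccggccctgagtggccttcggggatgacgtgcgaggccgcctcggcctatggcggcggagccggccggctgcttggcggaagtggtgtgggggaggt
PLK3, chr1:44800127-44800376, plus strand: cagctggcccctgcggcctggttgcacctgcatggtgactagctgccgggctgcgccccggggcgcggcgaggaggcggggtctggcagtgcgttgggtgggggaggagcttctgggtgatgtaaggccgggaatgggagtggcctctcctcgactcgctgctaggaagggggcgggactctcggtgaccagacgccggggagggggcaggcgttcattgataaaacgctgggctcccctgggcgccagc

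A p53 half-site stood in 1 of the 3 SESN1 windows as well, and the 2 half-sites are set side by side here, each with 10 bases on either side and the half-site in capitals.
AEN, chr15:88621296-88621325, plus strand: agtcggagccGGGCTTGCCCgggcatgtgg
SESN1, chr6:109009018-109009047, minus strand: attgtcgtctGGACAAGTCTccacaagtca
Counted back from the transcript start, the AEN half-site spans bases 34 to 25 and the SESN1 half-site bases 49 to 40. Of all 35116 windows in the table, 6.63% held such a half-site. AEN also held the E2F site, found in 2.27% of windows, and an E-box in the 50 bases after the start that are not shown, found in 7.26%. The TIGAR and PLK3 windows held none of these motifs, and the C/EBP-ATF element, found in 0.866% of windows, was in no window of the 4 genes. These matches describe letters in the windows shown and say nothing about binding.

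Medians over all rows were close on the deposited log2 scale, 4.32 to 4.33 in NCT-503 samples and 4.30 to 4.31 in DMSO samples. The 75th percentiles kept the groups apart, at 6.03 to 6.08 in NCT-503 samples against 6.16 to 6.19 in DMSO samples. The Pearson correlation over all rows was at least 0.990 for arrays of 1 group and at most 0.972 across groups. Of 11 noradrenergic neuroblastoma markers, 8 had a named row. Their means ran from 5.88 (TH) to 10.41 (DBH) in NCT-503 samples and from 6.05 (TH) to 10.04 (DBH) in DMSO samples. Of the 8, 3 rose and 3 fell, or 75% called, against 33.5% of all genes tested, a share that rises with mean level as given below. Of 5 leukocyte markers 2 had a named row: CD14 did not pass (-0.09), and CD68, which is also a lysosomal protein of many cells, rose (2.25, adjusted p = 1.53e-05). Of 7 fibroblast markers 2 had a named row, DCN, which fell (-0.47), and LUM, which did not pass (-0.24). What part these marker changes have in the results was not tested. In such bulk RNA, fewer expressing cells and less RNA per cell cannot be told apart.

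With NCT-503, 4 of the 6 genes fell, TP53INP1, TIGAR, AEN and RRM2B, 1 rose, PLK3, and 1, SESN1, did not pass the test. At an adjusted p under 0.05 from limma, 33.5% of the 14779 genes tested were called, 17.1% lower and 16.4% higher, so calls are common in this comparison. Among the 7389 genes left by a filter at the 50th percentile of mean level, 2153 were called higher and 2377 lower. Calls were thus more common among genes of higher level, and the shares called in the gene lists are given without a test. The median log2 change was -0.61 over the 6 genes and 0.06 over all genes tested. The 6 genes were chosen with earlier results of these data known, so this contrast only describes them. Over the 62 further p53 targets described below the median was 0.14. In 5 of the 6 genes the NCT-503 and DMSO arrays did not overlap, which was so in 47.9% of all genes.

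**Figure D1:**
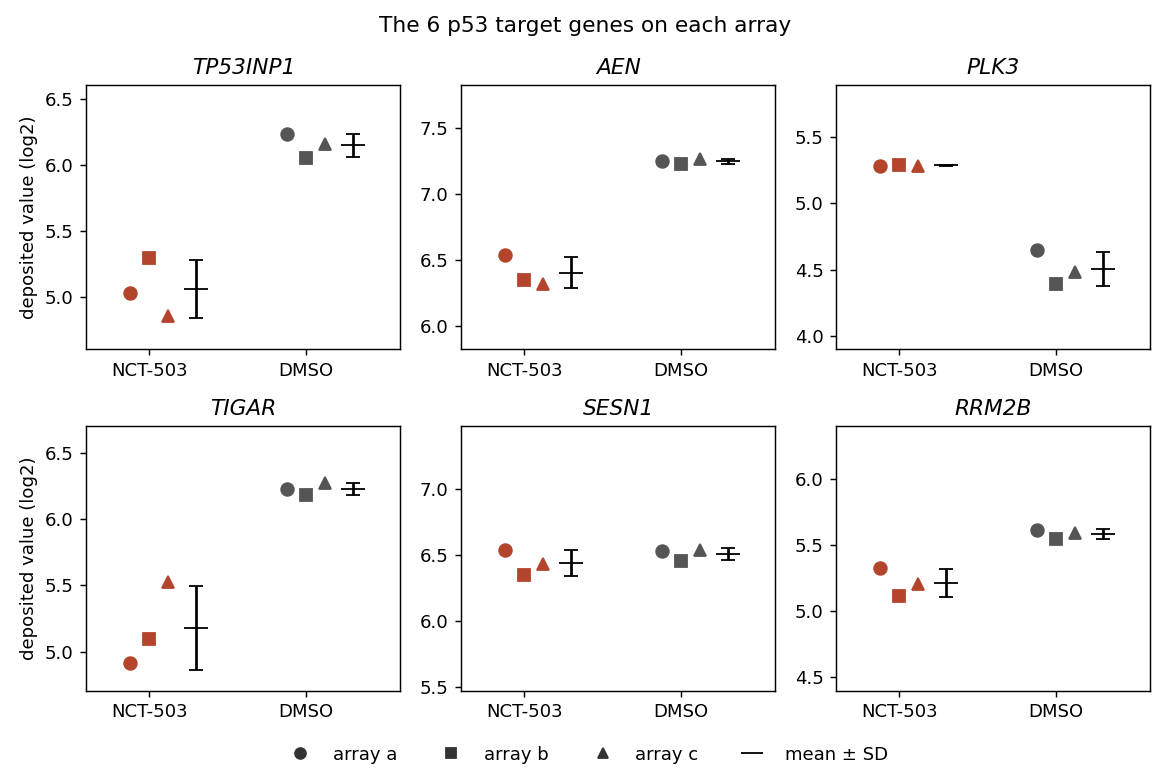
Deposited log2 values of the 6 genes on each array, NCT-503 left and DMSO right, with array a as circles, b as squares and c as triangles and the mean ± SD of 3 arrays beside them; every panel spans the same range of the log2 scale. TP53INP1, AEN, TIGAR and RRM2B lie lower in all 3 NCT-503 arrays, PLK3 lies higher in all 3, and SESN1 overlaps.

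Of the genes that act in cell death, TP53INP1 fell most. Its log2 values were 5.03, 5.30 and 4.86 in NCT-503 samples a, b and c, against 6.23, 6.05 and 6.16 in DMSO samples a, b and c. Every NCT-503 array lay below every DMSO array, and the NCT-503 arrays were spread more widely (SD 0.22) than the DMSO arrays (SD 0.09, n = 3 each). The log2 change was -1.09 ± 0.12 (SE, adjusted p = 0.000666 from limma), or 2.12-fold lower. Of all genes tested, 2.50% had a more negative change.

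AEN, the apoptotic nuclease whose promoter window is shown above, had log2 values of 6.54, 6.35 and 6.32 in NCT-503 samples, against 7.25, 7.23 and 7.27 in DMSO samples. The groups were clearly apart, and the 3 DMSO arrays differed by little (SD 0.02, n = 3). Its log2 change was -0.84 ± 0.08 (SE, adjusted p = 0.000405 from limma), 1.79-fold lower, and 4.68% of genes changed more negatively.

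PLK3, the stress-responsive kinase, was the 1 member that rose. It stood at 5.28, 5.29 and 5.28 in NCT-503 samples, against 4.64, 4.39 and 4.48 in DMSO samples. The NCT-503 arrays were nearly identical (SD 0.0051), whereas the DMSO arrays varied more (SD 0.13, n = 3 each). The log2 change was 0.78 ± 0.09 (SE, adjusted p = 0.000623 from limma), 1.72-fold higher, and 2.17% of genes changed more positively.

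Among the genes that act in metabolism, TIGAR had log2 values of 4.91, 5.09 and 5.53 in NCT-503 samples, against 6.23, 6.19 and 6.28 in DMSO samples. All 3 treated arrays were lower, but NCT-503 c lay above the other treated arrays, and the SD of 0.32 in NCT-503 samples, against 0.05 in DMSO samples, was the widest of the 6 genes. The log2 change was -1.05 ± 0.15 (SE, adjusted p = 0.00192 from limma), 2.07-fold lower, and 2.76% of genes changed more negatively.

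SESN1 gave 6.54, 6.35 and 6.43 in NCT-503 samples, against 6.53, 6.46 and 6.54 in DMSO samples. The groups overlapped, and the log2 change of -0.07 ± 0.08 (SE, adjusted p = 0.561 from limma) had a 95% interval from -0.26 to 0.12. Its sign is not settled, since it turned to 0.02 with quantile normalization and to 0.0015 with arrays centred on their 75th percentile.

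RRM2B, the reductase subunit for DNA repair, had the smallest change of the 4 members that fell. Its log2 values were 5.32, 5.11 and 5.20 in NCT-503 samples, against 5.62, 5.54 and 5.59 in DMSO samples. The groups did not overlap, and the log2 change was -0.37 ± 0.08 (SE, adjusted p = 0.0127 from limma), 1.29-fold lower. More negative changes were found in 15.4% of genes, and RRM2B is the member whose call would be lost at an adjusted p under 0.01.

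**Figure D2:**
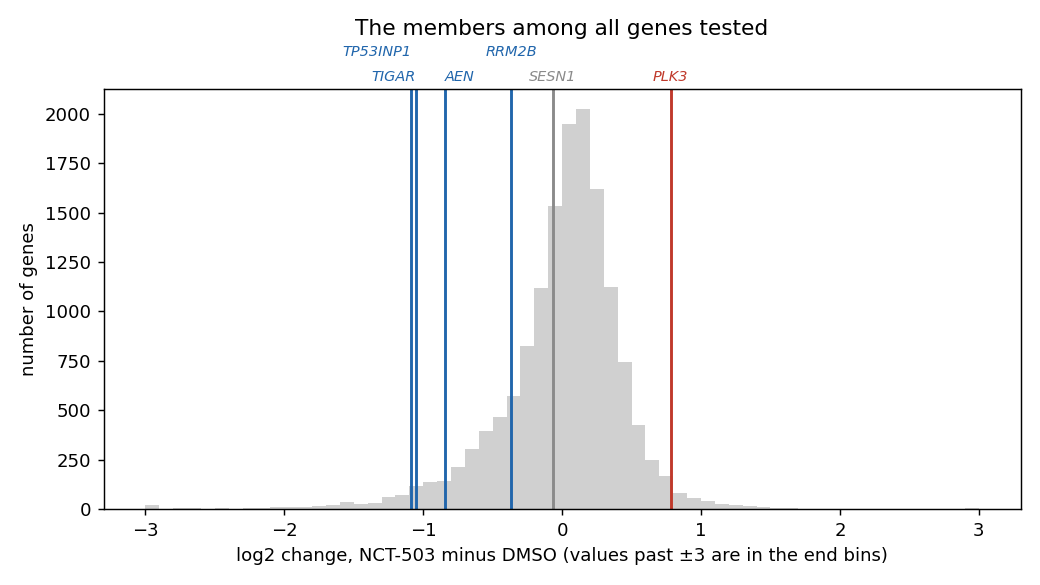
Distribution of log2 changes, NCT-503 minus DMSO, over all 14779 genes tested (grey bars, number of genes per 0.1 on the log2 scale; values past 3 either way are in the end bars), with a line for each of the 6 genes, blue for lower, red for higher and grey for not called. TP53INP1 (-1.09), TIGAR (-1.05) and AEN (-0.84) lie in the lower tail, PLK3 (0.78) in the upper tail, and SESN1 (-0.07) near the middle.

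Ordered by log2 change, the members ran TP53INP1, TIGAR, AEN, RRM2B, SESN1 and PLK3. Neighbours were set against each other through the difference of 2 members on each array. TIGAR and TP53INP1 differed in their change by 0.03, and AEN and TIGAR by 0.21, and in both pairs the NCT-503 and DMSO arrays overlapped in that difference, so the order of these 3 genes is within the spread. The change of RRM2B was 0.47 above that of AEN, that of SESN1 0.30 above that of RRM2B, and that of PLK3 0.85 above that of SESN1, each without overlap of the arrays. In 12 of the 15 pairs of members the arrays did not overlap in this way, but the pairs reuse the same genes. The share over pairs of all genes was not computed, so the count shows nothing particular to the members. An exact permutation test of 3 against 3 arrays cannot give a two-sided p below 0.1, so no p is given for these differences.

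The members did not share 1 pattern over the treated arrays. NCT-503 c had the lowest value of TP53INP1 and the highest of TIGAR, and the difference between these genes had an SD of 0.48 over the NCT-503 arrays. RRM2B and SESN1 kept the same order, highest in NCT-503 a and lowest in NCT-503 b, and their difference had an SD of 0.0095 over the NCT-503 arrays and 0.02 over the DMSO arrays. These pairs had the largest and the smallest SD over the NCT-503 arrays among the 15 pairs of members. They are extremes of a few arrays, and a shared pattern was not tested.

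For each member the genes with the most similar values were sought as the smallest root mean square difference over the 6 arrays, after each gene's DMSO mean was subtracted. This is a description over 6 arrays of 2 groups. TP53INP1 was nearest to TRMO, a tRNA methyltransferase (0.06), and MYBL1, a MYB family transcription factor (0.07). TIGAR was nearest to the zinc finger gene ZNF320 (0.06) and the microRNA gene MIR665 (0.06). AEN was nearest to NUP85, a nucleoporin, and ANAPC7, a subunit of the anaphase-promoting complex (0.03 each). PLK3 was nearest to TPM4, a tropomyosin, and RNF214 (0.05 each). RRM2B was nearest to SLBP, which binds histone mRNA (0.02), and SETD5 (0.03). SESN1 was nearest to MIR4318 (0.02) and LINC00351 (0.02), whose changes are like that of SESN1 by the way they were sought.

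Paralogs of the members did not all move with them. TP53INP2, an autophagy protein, had log2 values of 6.48, 6.69 and 6.40 in NCT-503 samples, against 6.37, 6.07 and 6.13 in DMSO samples. The groups did not overlap, and the log2 change of 0.33 ± 0.11 (SE) missed the threshold (adjusted p = 0.0610 from limma). It passed under 9 of 19 alternative settings, such as quantile normalization (0.42, adjusted p = 0.0260).

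The sestrins split 3 ways. SESN2, a target of both p53 and the amino acid response factor ATF4, rose with log2 values of 6.50, 6.69 and 6.51 in NCT-503 samples, against 5.98, 5.85 and 5.85 in DMSO samples, a change of 0.67 ± 0.09 (SE, adjusted p = 0.00119 from limma). SESN3, known as a target of FOXO factors, fell with 8.44, 8.43 and 8.69 in NCT-503 samples, against 9.30, 9.23 and 9.23 in DMSO samples, a change of -0.73 ± 0.09 (adjusted p = 0.00116 from limma). The arrays of each gene kept apart, while those of SESN1 overlapped. Of the GATOR genes through which sestrins act, 6 of 8 had a named row. DEPDC5 (-0.86 ± 0.10) and WDR59 (-0.37) fell, NPRL3 rose (0.42), and WDR24 (0.26), NPRL2 (0.16) and SEH1L (-0.10) did not pass. Of these 6 genes 50% were called, against 33.5% of all genes tested.

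Of the 5 polo-like kinases, PLK3 and PLK5 rose and PLK4 fell, or 60% called, against 33.5% of all genes tested. PLK4, the kinase of centriole duplication, had log2 values of 6.20, 6.40 and 6.32 in NCT-503 samples, against 6.95, 7.09 and 7.01 in DMSO samples (change -0.71 ± 0.09, adjusted p = 0.000905 from limma). PLK5, which lacks a working kinase domain in humans, changed by 0.55 ± 0.12 (adjusted p = 0.00959 from limma). PLK2, another p53 target, changed by 0.24 ± 0.13 (adjusted p = 0.190) and the mitotic kinase PLK1 by -0.19 ± 0.08 (adjusted p = 0.101), and neither passed. The arrays of PLK1 did not overlap, and it was called lower under 3 of 19 alternatives, which were trend and robust settings in the moderation (adjusted p = 0.0071), quantile normalization (-0.27, adjusted p = 0.0303) and a filter at the 50th percentile of mean level (adjusted p = 0.0344).

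ISG20, an exonuclease related to AEN, fell by 0.49 ± 0.14 (SE, adjusted p = 0.0340 from limma). That call was lost under 9 of 18 alternatives, among them leaving out NCT-503 a, NCT-503 b, NCT-503 c, DMSO a or DMSO b (adjusted p 0.0608 to 0.0894). Among ribonucleotide reductase genes, the replicative small subunit RRM2 fell too, with 7.69, 7.78 and 7.67 in NCT-503 samples, against 8.83, 8.79 and 8.83 in DMSO samples (change -1.11 ± 0.07, adjusted p = 8.23e-05 from limma); the difference between the falls of RRM2 and RRM2B was not tested. The large subunit RRM1 did not pass (-0.05, adjusted p = 0.570), though the DMSO arrays lay just above the NCT-503 arrays; its sign turned with arrays centred on the 75th percentile (0.01), and it was called lower without moderation of the variance (adjusted p = 0.0404). Of 6 other analysed enzymes of deoxynucleotide metabolism, the thymidylate synthase gene TYMS (-0.68) and the dUTPase gene DUT (-0.60) fell, and so did SAMHD1 (-0.38), whose product degrades deoxynucleotides. The deaminase gene DCTD rose (0.52), and the salvage kinase genes DCK (0.21) and DGUOK (-0.11) did not pass. Of these 6 enzyme genes 66.7% were called, against 33.5% of all genes tested.

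**Figure D3:**
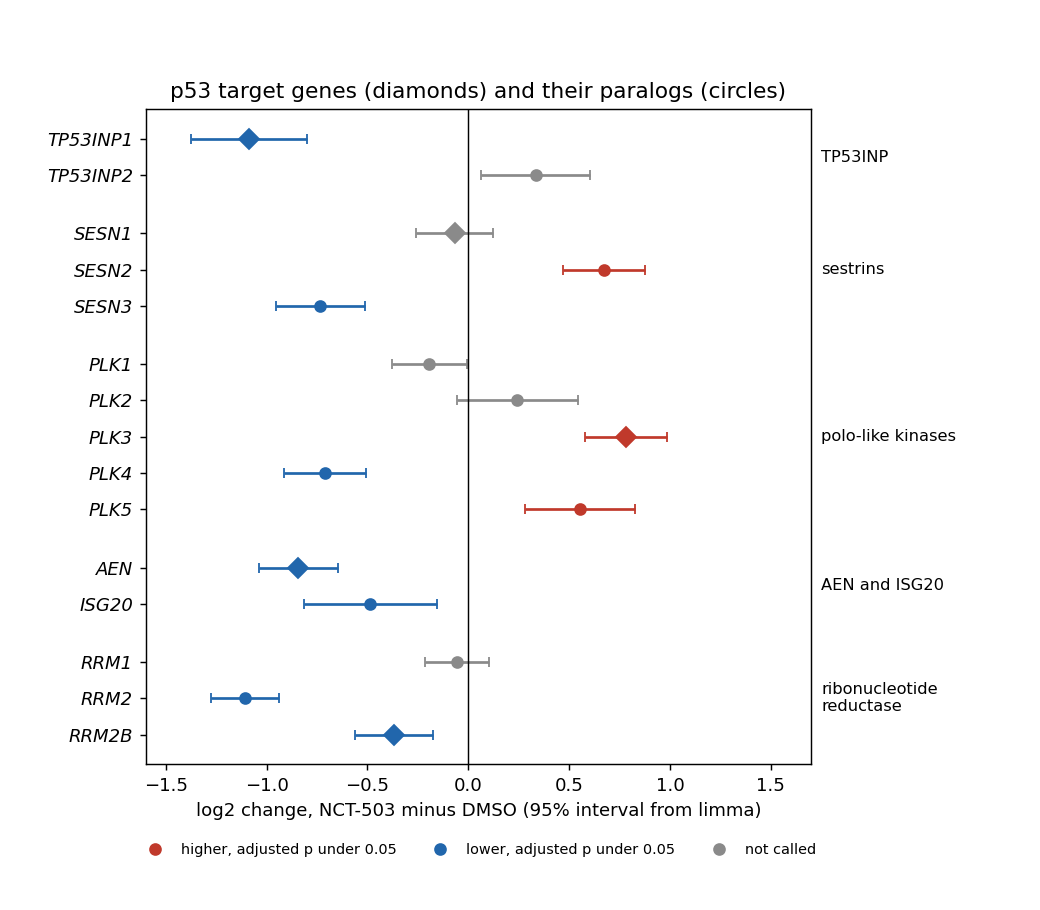
Log2 changes, NCT-503 minus DMSO, with 95% intervals from limma for the p53 target genes (diamonds) and their paralogs (circles), red for higher, blue for lower and grey for not called. SESN2 (0.67) and SESN3 (-0.73) lie on opposite sides of SESN1 (-0.07), and PLK4 (-0.71) lies opposite PLK3 (0.78).

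TIGAR feeds the pentose phosphate pathway, and 6 of 7 genes of that pathway had a named row. Of these, 4 rose while TIGAR fell: the transketolase gene TKT (0.74 ± 0.09, adjusted p = 0.000749 from limma), PGLS (0.57), PGD (0.53) and TALDO1 (0.27). RPE (-0.18) and RPIA (0.02) did not pass. Calls covered 66.7% of the 6 genes, against 33.5% of all genes tested, 16.4% higher and 17.1% lower. Of the 7389 genes above the 50th percentile of mean level, 2153 were called higher and 2377 lower, so a high share called is common among genes of higher level. The median change of the 6 genes was 0.40, against 0.06 over all genes tested.

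Further p53 targets went both ways. Of 98 listed genes 62 had a named row, of which 15 rose and 11 fell (41.9% called, against 33.5% of all genes tested), with a median log2 change of 0.14. With arrays centred on their 75th percentile, 22 rose and 10 fell, and over all genes that centring took the share of higher calls to 60.4%, from 48.8% as deposited. CCNG1, a cyclin that feeds back on p53, rose with 8.59, 8.65 and 8.67 in NCT-503 samples, against 7.95, 7.97 and 8.10 in DMSO samples (change 0.63 ± 0.08, adjusted p = 0.000947 from limma). The other 4 genes listed for feedback were not analysed here.

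Of 3 analysed targets that slow the cell cycle, E2F7, a repressive E2F factor, fell with 4.85, 5.02 and 4.72 in NCT-503 samples, against 6.75, 6.90 and 6.98 in DMSO samples, a change of -2.01 ± 0.11 (SE, adjusted p = 4.44e-05 from limma). PLK2 (0.24) and SFN (-0.14) did not pass, which left 33.3% of the 3 called. Of 9 analysed apoptosis targets 33.3% were called, against 33.5% of all genes tested. The death-promoting BCL2 family genes PMAIP1 (0.65 ± 0.11) and BBC3 (0.53 ± 0.15) rose. APAF1, which assembles the apoptosome, fell (-0.65 ± 0.09), and 6, BAX among them (0.15), did not pass. PMAIP1 and BBC3 thus moved opposite to TP53INP1 and AEN, whereas APAF1 fell as TP53INP1 and AEN did.

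Of 7 analysed metabolic targets, DDIT4, an inhibitor of mTORC1, rose by 1.43 ± 0.12 on the log2 scale (adjusted p = 0.000214 from limma), SESN2 rose as given above, GPX1, a glutathione peroxidase, rose by 0.37 ± 0.11, and none fell. Of these metabolic targets 42.9% were called. Among 42 other targets 9 rose and 9 fell, also 42.9% called, against 33.5% of all genes tested. GDF15, a stress cytokine also driven by ATF4, had 8.96, 8.57 and 8.56 in NCT-503 samples, against 4.60, 4.73 and 5.34 in DMSO samples, a change of 3.81 ± 0.21 (SE, adjusted p = 4.62e-05 from limma). TRIM38 (0.96 ± 0.09) followed, and ACER2, a ceramidase (-0.91 ± 0.17), and ZNF79 (-0.89 ± 0.16) fell most. No DNA repair target of the list was analysed here beside RRM2B.

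**Figure D4:**
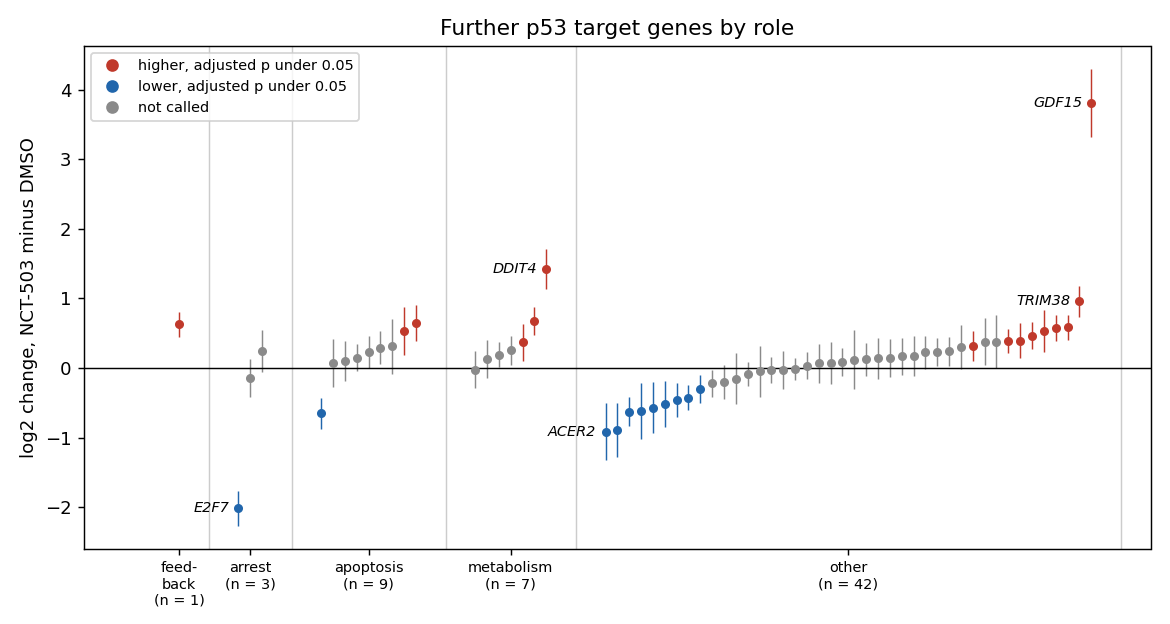
Log2 changes, NCT-503 minus DMSO, of 62 further p53 targets by role, sorted within each role, with 95% intervals from limma; red marks higher, blue lower and grey not called. GDF15 (3.81) and DDIT4 (1.43) are the highest and E2F7 (-2.01) the lowest.

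Among 12 analysed members of the p53 family and its regulators, EP300, the acetyltransferase that is a coactivator of p53, fell with 8.54, 8.44 and 8.53 in NCT-503 samples, against 9.55, 9.52 and 9.48 in DMSO samples (change -1.01 ± 0.07, adjusted p = 0.000113 from limma). Its relative CREBBP (-0.30), the damage kinase ATR (-0.31) and the deubiquitinase USP7 (-0.23) also fell, and the deacetylase SIRT1 rose (0.28). Of the 12 genes, 41.7% were called, against 33.5% of all genes tested, and the other 7 did not pass. The acetyltransferase gene KAT5 had the largest change of these (0.49 ± 0.17, adjusted p = 0.0575 from limma), and its NCT-503 arrays all lay above its DMSO arrays. The p53 relative TP73 (-0.19), the p53 inhibitor MDM4 (-0.21), the kinases CHEK1 (0.08), CHEK2 (-0.31) and HIPK2 (-0.12), and the damage response gene TP53BP1 (-0.01) made up the rest.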

How the data were processed

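RNA of 6 samples was hybridised to 6 Affymetrix whole-transcript arrays, 1 per sample. The authors deposited log2 values, taken as such from their range and medians; per the submitters' processing notes they used Partek. Its version, the background correction and the normalization: not given in the sources used here. In all, the table held 31135 rows; the platform annotation paired 15098 with 1 gene symbol, none with several, and all 15098 matched GRCh38.p14 RefSeq gene identifiers. Where a gene had several rows, that of the highest mean was kept, which left 14779 genes; each of the 6 members had 1 row.

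Differences, NCT-503 minus DMSO, were tested two-sided by limma 3.58.1 under R 4.3.3 (lmFit, eBayes, no covariates). P-values were adjusted by Benjamini-Hochberg over these 14779 genes, and a gene was called where the adjusted p was under 0.05. The steps were tested on simulated data. Precision is limited by the number of arrays; the standard error (SE) had a median of 0.105. Whether the samples were separate cultures is not in the labels, so the p-values reflect only the spread of these 6 samples, which may be technical.

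Members and gene lists were chosen with earlier results of these data known. Named are the 6 members, their paralogs, up to 4 called genes with the largest change per list, and per member the 2 genes with the most similar values. MDM2 and CDKN1A were also to be named and were not analysed here; CHEK1 and others outside the rule, given to complete a count or as uncalled values, were chosen after their values were seen. Alternatives covered moderation, array weights, a replicate block, scaling, filters, row choice, leaving out each array and a stricter threshold; a test of only protein-coding genes was chosen after seeing the data. Promoter windows are RefSeq's, from GRCh38.p14.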

Additional observations from a re-analysis of the deposited data

How the results depend on the processing

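Over 19 alternative settings, TP53INP1 (-1.20 to -0.98), TIGAR (-1.23 to -0.92) and AEN (-0.91 to -0.77) stayed lower and called, and PLK3 (0.72 to 0.85) stayed higher and called in the 18 settings that tested it. RRM2B (-0.42 to -0.28) was called except at an adjusted p under 0.01, and SESN1 (-0.12 to 0.02) was called in none. SESN1 turned to 0.016 with quantile normalization, and centring on the 75th percentile turned SESN1 to 0.0015 and RRM1 to 0.014, neither called. With a filter at the 50th percentile of mean level PLK3 is not tested, so 0 members were higher. The threshold of 0.01 left 1226 genes higher and 1682 lower, and 6 further p53 targets were lower, and with every row tested 4100 rows were lower, since more rows were tested. Same-letter samples did not deviate together (correlations 0.003 to 0.04), and 3 of 6 samples correlated best with their own letter, so the letters are not taken as pairs; with a replicate block 1 member was higher, 4 were lower, and 2108 genes were higher and 2327 lower. Other scalings moved the median change of all genes by -0.02 to 0.07. Without detection values, folds of dim genes may be understated.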
